A study of Mus musculus with 3 samples.

Results

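Monocytes and macrophages of the day 7 fracture callus library were examined as 158 cells, 1.93% of the 8178 cells of that library within the limits on cells (95% exact interval 1.64% to 2.25%) and 158 of the 30888 cells deposited for the series. A cell entered the group when it held at least 2 UMIs (counted RNA molecules) of *Csf1r*, the receptor for the macrophage growth factor CSF-1, and at least 1 UMI of *Ptprc*, which encodes CD45. Its *S100a8* and *S100a9* UMIs, from the abundant neutrophil calprotectin genes, had to stay under 500 UMIs per 10000 UMIs of the cell (p10k). Its *Elane*, *Mpo*, and *Prtn3* UMIs, from the granule protease and peroxidase genes of early granulocytes, had to stay under 50 p10k, and *Cd79a*, a B cell receptor component, had to be absent. The limits on cells were at least 500 detected genes, at most 10% mitochondrial UMIs, and at most 5% hemoglobin UMIs, with no upper limit on genes. These genes chose the cells, so their levels describe the choice and nothing was tested with them.

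The study profiled the mesenchymal cells of healing bone, and its 3 libraries came from femoral callus of untreated C57BL/6 mice at 7, 10, and 14 days after fracture, 1 library per day. Every callus was cleaned of marrow and digested with collagenase, and live cells without CD45, CD31, and TER119 were sorted and captured with a 10x Genomics 3' kit, which counts UMIs near the 3' end of each transcript. The labels name every library bone callus mesenchymal cells and give neither the number of mice pooled nor their age. With 1 library per day, day and library cannot be told apart, no test across samples was possible, and all intervals below cover counting error only.

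Monocytes arise in the marrow from granulocyte-monocyte precursors, circulate, and enter injured tissue through CCR2, where they can mature into macrophages. Classical mouse monocytes are known by high *Ly6c2* and *Ccr2*, and tissue macrophages by C1q, *Adgre1* (F4/80), and *Mertk*. In fracture callus, cells of this lineage clear debris, release cytokines and growth factors, and supply osteoclast precursors.

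The day 7 library stood apart from the others and went against its sort. *Ptprc* UMIs were present in 91.1% of its cells within the limits, compared with 0.0818% at day 10 and 1.74% at day 14. Neutrophils, taken as cells with at least 500 p10k of *S100a8* and *S100a9*, fewer than 2 *Csf1r* UMIs, and no *Cd79a*, made up 5827 of its 8178 cells, and cells that met the monocyte rule were therefore a small group within a largely hematopoietic library. The libraries held 9103, 8801, and 12984 barcodes and between 113127788 and 195661880 UMIs. Between day 7 and day 10, 29 barcodes were shared, and 3 of them were members. Of the 42 barcodes shared by day 7 and day 14, 1 was a member.

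Of the 8178 day 7 cells within the limits, 625 held at least 2 *Csf1r* UMIs. The *Ptprc* requirement then removed 11 cells, the calprotectin limit 189, the granule gene limit 265, and the *Cd79a* limit 2. The granule gene limit thus took out more *Csf1r*-positive cells than it left. There was no gap at this limit, because the highest members held 47.5, 46.4, and 46.4 p10k and the lowest cells outside it 51.3, 52.4, and 54.0 p10k. At the calprotectin limit the highest members held 380, 369, and 336 p10k, and the lowest cells outside held 547, 572, and 577 p10k. Among members, 49 cells held exactly 2 *Csf1r* UMIs and the highest cells held 10, and 81 further cells met every other criterion with 1 *Csf1r* UMI. Members held 2804322 UMIs in all, with a median of 13744 UMIs per cell (range, 903 to 49262) and 3584 genes.

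Classical monocyte genes were present at high levels in these cells, whereas most defining macrophage genes were near 0. All 12 genes of a classical monocyte list were above 50 CPM in the members, where CPM is a gene's share of the summed UMIs of a group scaled to 1000000. *Ly6c2* stood at 3884 CPM (3811 to 3958), *Plac8*, another gene of Ly6C-high monocytes, at 3031 CPM (2967 to 3096), and *Chil3*, which encodes a secreted chitinase-like protein, at 2679 CPM (2619 to 2740). *Ccr2*, the receptor for CCL2, stood at 896.5 CPM (861.8 to 932.2) with UMIs in 146 of 158 cells, and *F13a1*, which encodes the coagulation factor XIII A chain, at 1202 CPM (1161 to 1243). The list summed to a median of 209 p10k per cell, with 11.1 p10k in the lowest cell and 459 p10k in the highest.

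Among the 14 genes of the macrophage list, 3 exceeded 50 CPM. They were *Apoe*, an apolipoprotein gene, at 674 CPM, *Cd68*, a lysosomal membrane glycoprotein gene, at 139 CPM, and *Fcgr1*, the high-affinity IgG receptor gene, at 65.3 CPM. *C1qa* was at 7.13 CPM (4.36 to 11.0), with UMIs in 6 cells, and *Mrc1*, the mannose receptor gene, at 5.71 CPM. *Mertk*, a receptor for apoptotic cells, had UMIs in 1 cell. *Adgre1*, the gene of the macrophage antigen F4/80, was intermediate at 41.7 CPM and was detected in 75 of 158 cells. Of the 10 genes of marrow and tissue resident macrophages, *Spic*, *Timd4*, *Lyve1*, *Vsig4*, and *Marco* had no UMI in any member, and none of the 10 exceeded 50 CPM. Of 11 osteoclast genes, *Dcstamp*, *Calcr*, *Atp6v0d2*, and *Oscar* also had no UMI, while 2 exceeded 50 CPM and the 11 summed to 164 CPM. *Arg1* and *Nos2*, the usual genes of alternatively and classically activated macrophages, had no UMI. *Chil3*, listed with *Arg1* for alternative activation, was high, as given above. Relative to the other groups, which had even less, the macrophage list was still higher. Of its tested genes, 6 of 11 were at least 4-fold higher in members than in neutrophils, with a median log2 ratio of 2.45, beside 14.1% and 0.79 for all genes. The list gave 7 of 7 genes over granulocyte precursors (7.04% of all genes; median, 4.26) and 5 of 7 over B lineage cells (6.06%; median, 4.83), groups defined below. By level, however, the defining genes C1q, *Mertk*, and *Mrc1* were near 0 in most cells, and the cells are called monocytes below by their leading genes.

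**Figure D1:**
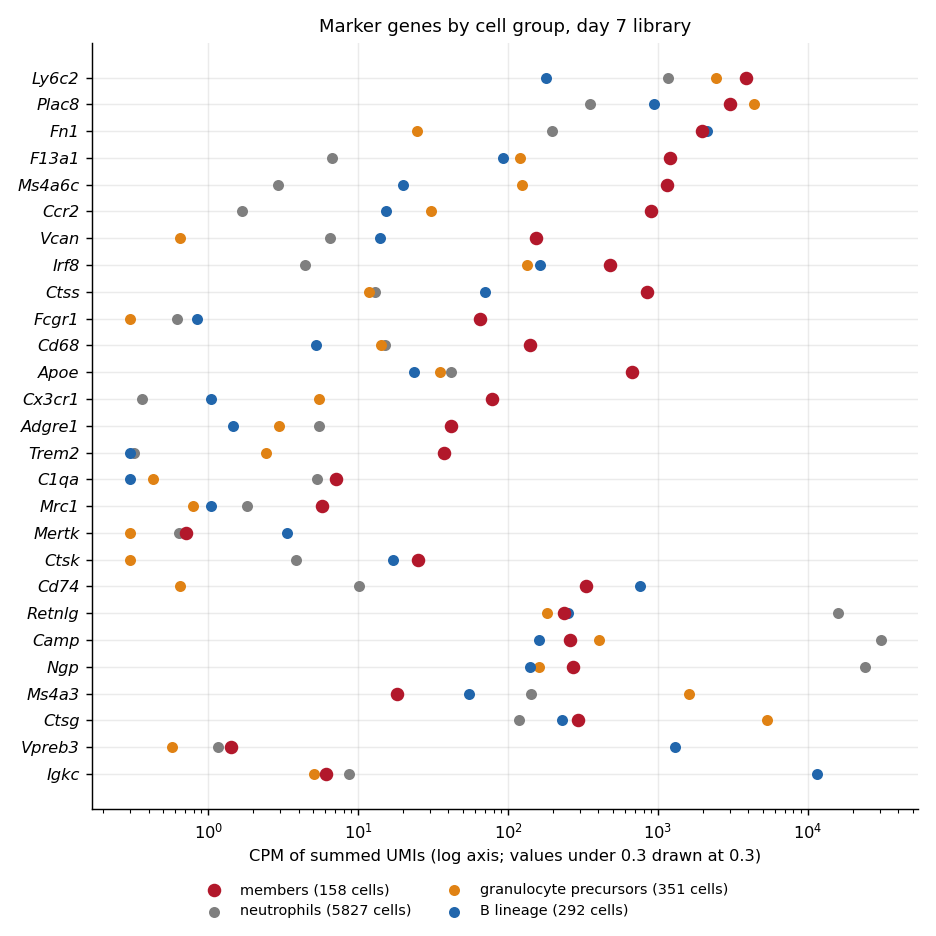
Summed level of 27 marker genes in 4 groups of day 7 cells, in CPM on a log axis, with values under 0.3 drawn at 0.3 and 1 point per gene and group. The members lie to the right of the 3 other groups for *Ccr2*, *Ms4a6c*, and *Ctss*, and near the left edge with the others for *Mertk*, while the neutrophil genes *Camp* and *Ngp* lie far to the right in neutrophils.

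To separate the cells by the markers of the label, *Ly6c2* (at least 2 UMIs) and the sum of *C1qa*, *C1qb*, and *C1qc* (at least 3 UMIs) were used. The *Ly6c2* class held 147 of 158 cells, or 93.0% (87.9% to 96.5%). Most neutrophils and granulocyte precursors also held *Ly6c2* at equal depth, as given below, so the class does not by itself name a cell a monocyte. The C1q class held 3 cells, or 1.90% (0.393% to 5.45%), no cell held both, which allows a share of up to 1.90% when 3 counts are taken as the limit of a count of 0, and 8 cells held neither. With 3 cells in the C1q class, levels were not compared between the classes.

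Gene clusters on chromosomes 19 and 1 held several of the genes that set these cells apart from neutrophils, and upstream sequences of paralog pairs among them are shown first. The *Ms4a* genes encode membrane proteins with 4 transmembrane segments, and the PYHIN genes encode interferon-inducible sensors and regulators of DNA. *Ms4a6b* and *Ms4a6c* are neighboring paralogs, and the 250 bases upstream of their RefSeq starts shared a run of 48 bases, marked by capitals (RefSeq, GRCm38.p6, chr19:11518309-11518558 and chr19:11469118-11469367, both on the plus strand).
Ms4a6b: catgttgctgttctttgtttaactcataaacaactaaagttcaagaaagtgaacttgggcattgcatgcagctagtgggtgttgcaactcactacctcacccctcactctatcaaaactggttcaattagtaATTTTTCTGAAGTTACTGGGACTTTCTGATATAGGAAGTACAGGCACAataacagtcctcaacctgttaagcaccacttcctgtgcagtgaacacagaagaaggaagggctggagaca
Ms4a6c: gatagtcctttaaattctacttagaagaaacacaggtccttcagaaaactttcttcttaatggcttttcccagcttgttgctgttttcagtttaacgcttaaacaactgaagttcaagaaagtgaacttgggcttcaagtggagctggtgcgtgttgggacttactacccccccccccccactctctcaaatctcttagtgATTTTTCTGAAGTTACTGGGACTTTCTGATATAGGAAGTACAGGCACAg
The shared run began 118 bases upstream of the start in *Ms4a6b* and 49 bases upstream in *Ms4a6c*. Shared sequence of this kind is a property of paralogs, and the upstream windows are not independent of each other.

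The 4 PYHIN windows below carry in capitals a match to the core of an interferon-stimulated response element, spelled here as GAAA, any 2 bases, and GAAA, searched on both strands. They come from the minus strand of chromosome 1 in GRCm38.p6 (RefSeq), at chr1:173741810-173742059 for *Ifi207*, chr1:173913047-173913296 for *Ifi211*, chr1:173880188-173880437 for *Mndal*, and chr1:173942493-173942742 for *Ifi203*.
Ifi207: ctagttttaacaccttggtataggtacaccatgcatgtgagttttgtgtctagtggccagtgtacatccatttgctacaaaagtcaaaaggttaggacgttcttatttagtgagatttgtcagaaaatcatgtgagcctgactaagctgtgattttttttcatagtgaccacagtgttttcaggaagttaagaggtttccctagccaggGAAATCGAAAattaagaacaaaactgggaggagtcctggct
Ifi211: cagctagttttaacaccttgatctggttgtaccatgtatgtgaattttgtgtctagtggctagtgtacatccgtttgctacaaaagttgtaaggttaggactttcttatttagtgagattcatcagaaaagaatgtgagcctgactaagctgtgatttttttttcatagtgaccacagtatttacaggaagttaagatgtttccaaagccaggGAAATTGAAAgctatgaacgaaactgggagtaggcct
Mndal: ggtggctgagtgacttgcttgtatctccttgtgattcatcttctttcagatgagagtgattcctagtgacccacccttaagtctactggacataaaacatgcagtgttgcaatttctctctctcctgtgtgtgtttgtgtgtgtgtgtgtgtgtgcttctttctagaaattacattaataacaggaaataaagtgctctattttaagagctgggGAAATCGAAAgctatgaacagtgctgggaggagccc
Ifi203: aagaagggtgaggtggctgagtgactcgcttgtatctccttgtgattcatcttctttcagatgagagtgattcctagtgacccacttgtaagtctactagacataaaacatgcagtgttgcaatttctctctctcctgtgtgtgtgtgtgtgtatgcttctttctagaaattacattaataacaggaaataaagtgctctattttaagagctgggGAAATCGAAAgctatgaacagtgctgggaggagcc
The match began 41, 37, 36, and 35 bases upstream of the start in this order. Of the 8 PYHIN genes at least 4-fold higher in members than in neutrophils, 6 had a match in at least 1 window of this length (*Ifi203*, *Ifi206*, *Ifi207*, *Ifi211*, *Ifi213*, and *Mndal*), as did 3.46% of the 27025 RefSeq mouse genes searched. By window, 7 of the 10 windows of these 8 genes matched, as did 2.98% of all 32851 windows. *Ifi209* and *Aim2* had none. None of the 5 *Ms4a* genes with a window held it. The motif GAGGAAGT, the core bound by PU.1, was found for 1 of the 8 PYHIN genes, *Aim2*, for none of the 5 *Ms4a* genes, and for 2.79% of all genes searched. *Ifi207* and *Ifi211* shared a run of 31 bases, and *Mndal* shared 43 bases with the other *Ifi203* window. The *Mndal* and *Ifi203* windows shown above are identical over a longer stretch that includes the match. The windows of *Ifi206* and *Ifi213* are also nearly identical over a long stretch around their match. The matches of these paralogs therefore do not count separately, and a match describes the letters alone.

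Within the *Ms4a* cluster (chr19:10962293-11640851), 7 of 19 genes had enough UMIs for a ratio and 6 were at least 4-fold higher in members than in neutrophils, with a median log2 ratio of 8.10 over the 7. Over all 11000 genes tested, 14.1% were as much higher. The cluster was chosen after its values were seen, as was the PYHIN cluster, and nothing is called particular to either from its count. *Ms4a6c* stood at 1142 CPM compared with 2.91 CPM in neutrophils, and *Ms4a4c* at 425 CPM compared with 0.535 CPM. *Ms4a3*, a gene of granulocyte-monocyte precursors at the end of the same cluster, was the exception, at 18.2 CPM in members, 141 CPM in neutrophils, and 1599 CPM in granulocyte precursors. *Ms4a1*, the B cell gene for CD20, had no UMI in members and 122.5 CPM in B lineage cells.

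In the PYHIN cluster (chr1:173350879-174031810), 10 of 13 genes had enough UMIs and 8 were at least 4-fold higher than in neutrophils, with a median log2 ratio of 5.81, beside the same 14.1% of all genes. *Ifi211* stood at 172 CPM in members, 1.84 CPM in neutrophils, 6.11 CPM in granulocyte precursors, and 3.56 CPM in B lineage cells. *Ifi207* stood at 179 CPM and between 1.26 and 3.23 CPM in the same 3 groups. *Mndal* and *Ifi203* were not restricted in this way, at 255 CPM each in members and 182 and 173 CPM in B lineage cells. *Mndal* and *Ifi203* overlap on the same strand and *Ifi211* lies within the span of *Mndal*, so UMIs of the 3 genes could be split differently by another count. *Ifi204*, which had no 4-fold difference, stood at 251 CPM compared with 68.4 CPM in neutrophils. Of 13 interferon response genes tested from a fixed list, 3 were at least 4-fold higher than in neutrophils and 1 was lower. Their median log2 ratio was 1.16, beside 14.1% higher, 4.41% lower, and a median of 0.79 for all genes.

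Compared with neutrophils, members were at least 4-fold higher for 1546 of 11000 genes with at least 50 UMIs in both groups together (14.1%) and at least 4-fold lower for 485 (4.41%). The rule fixed part of this contrast, so it is given as a description. The median gene was 0.79 higher on the log2 scale, and relative to that median 587 genes were at least 4-fold higher and 942 lower. The neutrophil total is dominated by few genes, *S100a8* and *S100a9* alone making 121074 and 136926 CPM of it. Among genes with at least 200 UMIs in members, the highest log2 ratios were those of *Ms4a4c* (9.63), *Ccr2* (9.07), *Stxbp6* (9.0), *Ms4a6c* (8.62), *Pld4* (8.39), *Cx3cr1* (7.75), *Itga1* (7.66), *Ly86* (7.65), *Mcub* (7.57), and *Ms4a6b* (7.55). *Pld4* encodes an endolysosomal nuclease, *Ly86* the MD-1 partner of the receptor RP105, *Itga1* a collagen-binding integrin chain, and *Mcub* a regulator of mitochondrial calcium uptake. All 9 neutrophil genes not used by the rule were at least 4-fold lower, among them *Camp* (log2 ratio, -6.88) and *Ngp* (-6.47), which encode proteins of neutrophil granules.

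The list counts that follow are read against all genes tested, of which 14.1% were higher and 4.41% lower than in neutrophils, with a median of 0.79. Among transcription factors, 7 of 13 tested were at least 4-fold higher than in neutrophils and 1 was lower, with a median log2 ratio of 2.45. *Irf8*, needed for the monocyte and dendritic cell lineages, stood at 476 CPM (450.9 to 502.3) in members compared with 4.41 CPM in neutrophils and was detected in 135 cells. *Klf4*, required for Ly6C-high monocytes, stood at 456 CPM compared with 13.5 CPM. *Zeb2* and *Irf5* stood at 562 and 149 CPM, compared with 34.4 and 7.86 CPM. *Cebpe*, a factor of late granulocyte development, was the lower gene at 25 compared with 448 CPM. *Spi1*, which encodes PU.1 of the whole myeloid branch, was similar in both at 420 and 528 CPM.

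Receptors and ligands of cell traffic divided in the same way. Of 5 chemokine receptors tested, *Ccr2* and *Cx3cr1* were at least 4-fold higher than in neutrophils, *Ccr1* and *Cxcr2* at least 4-fold lower, and *Cxcr4*, the receptor for marrow CXCL12, was level at 173 and 166 CPM (log2 ratio, 0.06). Of 9 chemokines, 4 were higher. *Ccl9*, a ligand of CCR1, was the highest of them at 284 CPM compared with 4.84 CPM, and *Ccl2*, the ligand of CCR2, had 17.8 CPM in 17 cells. *Ccl6*, another CCR1 ligand, was lower in members at 447 CPM than in neutrophils at 972 CPM, by less than 4-fold. Inflammatory cytokines were sparse, with no UMI of *Il1a*, *Il10*, or *Il12b*, and *Il1b* in 19 of 158 cells, of which a single cell held 50.3% of its UMIs.

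Lysosomal genes were tested for 19 of 20 listed, and 9 were at least 4-fold higher and 1 lower, with a median log2 ratio of 1.91, beside 14.1%, 4.41%, and 0.79 for all genes. *Ctss*, a protease of antigen-presenting cells, stood at 839 CPM (805.8 to 874.0) compared with 13 CPM in neutrophils, and *Psap* and *Npc2*, which act in lysosomal lipid handling, at 2193 and 1187 CPM compared with 299 and 95.6 CPM. *Cd63* was the lower gene, with a log2 ratio of -2.03 at 101 CPM, or 16.2 CPM without the 4 collagen-rich cells described below. Of 13 phagocytic and scavenger receptors, 5 were higher and 2 lower. *Msr1*, a scavenger receptor for modified lipoproteins, and *Trem2*, a lipid-sensing receptor, stood at 52.1 and 37.1 CPM and below 1 CPM in neutrophils, while *Itgam*, which encodes CD11b, was lower at 150.5 compared with 632 CPM. Of 10 pattern recognition receptors, 1 was higher (*Cd14*, with 39.3% of its UMIs in 1 cell) and 2 lower (*Clec4e* and *Clec4d*), with a median of 0.05, and the higher count was near the share over all genes. All 6 MHC class II genes tested were higher. For *H2-Aa*, *H2-Ab1*, *H2-Eb1*, and *Cd74*, 1 cell of the C1q class held 930 UMIs. The 144 *Ly6c2* class cells left without the collagen-rich cells held 891, of which 3 cells held 92.3%, as described below. *H2-DMa* and *H2-DMb1*, whose products load peptide onto MHC class II, were spread more widely.

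**Figure D2:**
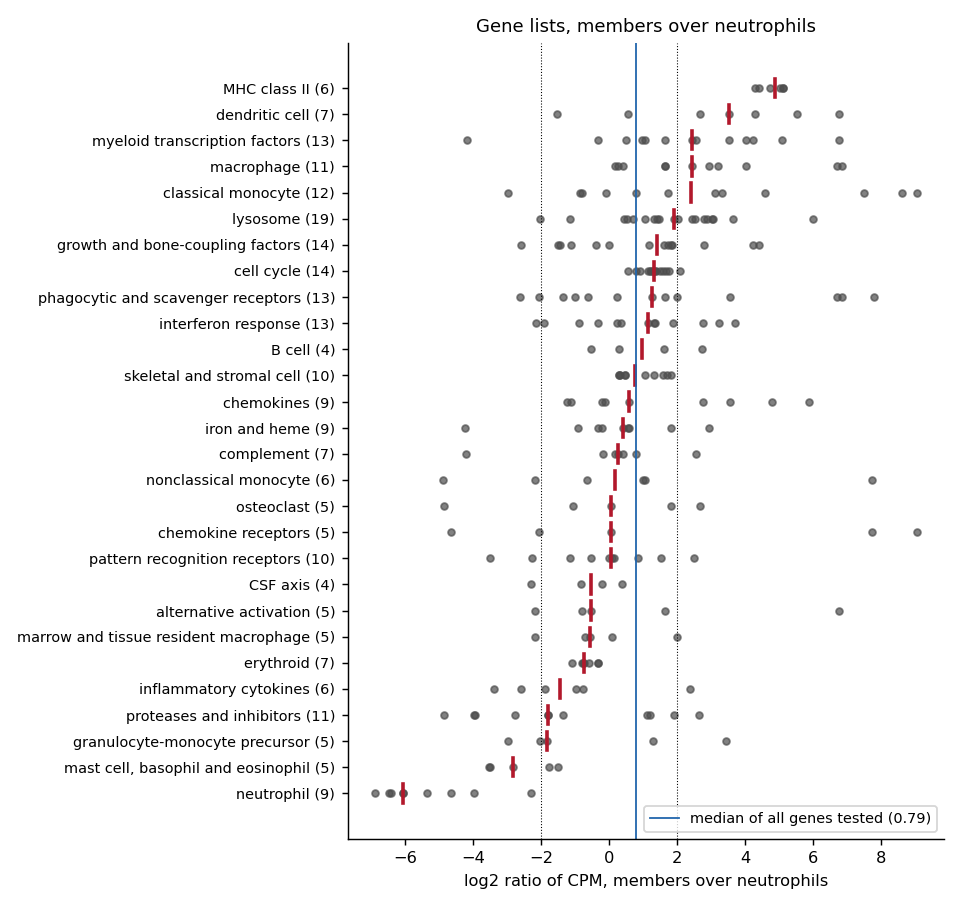
Log2 ratio of CPM, members over neutrophils, for each tested gene of the lists with at least 3 genes (gray points, gene number in parentheses), with the list median as a red bar, the median of all 11000 genes as a blue line at 0.79, and dotted lines at 4-fold. Lists are ordered by their median, from MHC class II at 4.87 to neutrophil genes at -6.07.

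Growth and bone-coupling factors were mostly low, and the values of several rested on a few cells. *Grn*, which encodes progranulin, and *Tgfb1* were broadly detected, at 449 CPM in 152 cells and 227 CPM in 140 cells. *Tnfsf12*, which encodes the cytokine TWEAK, stood at 27.1 CPM compared with 1.28 CPM in neutrophils. *Bmp2*, *Bmp6*, and *Igf1*, which act on bone-forming cells, read 15.3, 12.1, and 14.6 CPM in all members and 0.376, 0.376, and 3.01 CPM without 4 members rich in collagen RNA. These 4 cells had at least 50 p10k of *Col1a1*, *Col1a2*, *Col2a1*, *Ibsp*, and *Sparc* together, and they were the only members above this level. They held 96.1% of those UMIs in all members, and 98.8% of the *Ibsp* UMIs, a bone matrix gene. The 10 skeletal and stromal genes summed to 4197 CPM with them and 201 CPM without them. *Fn1*, the fibronectin gene of the monocyte list, read 1959 CPM with them and 1561 CPM without. Doublet scoring marked 2 of these 4 cells and 5 of the 158 members, and whether they are doublets was not tested further.

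Granulocyte precursors, defined here by at least 50 p10k of the granule genes and fewer than 2 *Csf1r* UMIs (351 cells), were compared in the same way. Members were at least 4-fold higher for 705 of 10021 genes (7.04%) and lower for 427 (4.26%), and the median log2 ratio was 0.00. Of 12 classical monocyte genes, 8 were higher and none lower, with a median of 3.35. *Vcan*, the versican gene, stood at 154 CPM compared with 0.647 CPM, and *Ccr2* at 896.5 compared with 30.4 CPM, whereas *Ly6c2* and *Plac8* differed by 0.68 and -0.53 on the log2 scale. *S100a4* and *Ahnak*, named after their values were seen, stood at 1927 and 903 CPM compared with 17 and 8.27 CPM. Of the granulocyte-monocyte precursor genes not used by the rule, 4 of 5 were lower in members, among them *Ms4a3* (log2 ratio, -6.46), *Kit* (-4.32), and *Ctsg* (-4.20), and *Cd34* differed by -1.68. The granule gene limit that separated the 2 groups fixed this in part.

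B lineage cells had at least 1 UMI of *Cd79a*, fewer than 2 *Csf1r* UMIs, and under 500 p10k of *S100a8* and *S100a9* (292 cells). Against them, 569 of 9385 genes were at least 4-fold higher in members (6.06%) and 591 lower (6.3%), with a median of -0.11. Without the 4 collagen-rich members, the counts were 669 higher and 475 lower, so which of the 2 was larger depended on those cells. The largest log2 ratios over B lineage cells were those of *Ifi207* (7.15), *Clec4a1* (6.26), *Cx3cr1* (6.22), *Gpr141* (6.20), *AI839979* (6.15), *Ccr2* (5.87), *Ms4a6c* (5.84), *Apoc2* (5.78), *Ifi204* (5.77), and *Clec4a3* (5.67). *Clec4a1* and *Clec4a3* encode C-type lectin receptors of myeloid cells. Within the PYHIN cluster this contrast separated *Ifi207*, *Ifi211*, and *Ifi204* from *Mndal* and *Ifi203*, whose B lineage levels are given above. All 7 B cell genes tested were lower in members, which the *Cd79a* limits that separated the 2 groups fixed in part.

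Neutrophil RNA was found in every group of this library. The 11 genes of the neutrophil list summed to 5479 CPM in members, 351282 CPM in neutrophils, 3806 CPM in B lineage cells, and 1982 CPM in skeletal cells without a *Ptprc* UMI. The list holds *S100a8* and *S100a9*, whose limits separated members from neutrophils, so this contrast was fixed in part. *Ngp*, which no limit used, stood at 271, 23951, 139, and 121 CPM in the same order. The median of *S100a8* and *S100a9* was 17.2 p10k in all members, 17.9 p10k in B lineage cells, which had the same upper limit, and 13.4 p10k in skeletal cells. Of the members, 15 lay between 100 p10k and the limit, and 7 of them were cycling cells of the *Ly6c2* class and 5 were cells of neither class. Of the 4 collagen-rich cells, 3 also lay there. The origin of this RNA was not tested.

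About as many cells of the *Ly6c2* class carried proliferation RNA as did not. Among the 144 cells of the *Ly6c2* class left without the collagen-rich cells, the UMIs of *Mki67* and *Top2a*, genes of dividing cells, numbered 0 in 60 cells and 1 in 11. No cell held 2, 6 cells held 3 to 9, 2 held 10 to 17, and 65 held 18 or more, up to 104. Cells with at least 3 such UMIs were called cycling. They were 73 of 144, or 50.7% (42.2% to 59.1%), and 37.7% among cells with at most 5000 genes. The same measure gave 12.4% of neutrophils, 37.0% of B lineage cells, 86.6% of granulocyte precursors, 96.7% of 270 cells with at least 2 *Csf1r* UMIs that were at or above the granule gene limit, and 10.0% of skeletal cells. A fixed number of UMIs is reached more easily in deep cells, and the median depth was 4995 UMIs in neutrophils, 6645 in B lineage cells, and 40756 in granulocyte precursors. At 3000 UMIs per cell, *Mki67* was detected in 43.1% of 153 members, 48.5% of 330 granulocyte precursors, 38.1% of 252 B lineage cells, and 15.3% of 4554 neutrophils, so that members, precursors, and B lineage cells lay much closer.

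**Figure D3:**
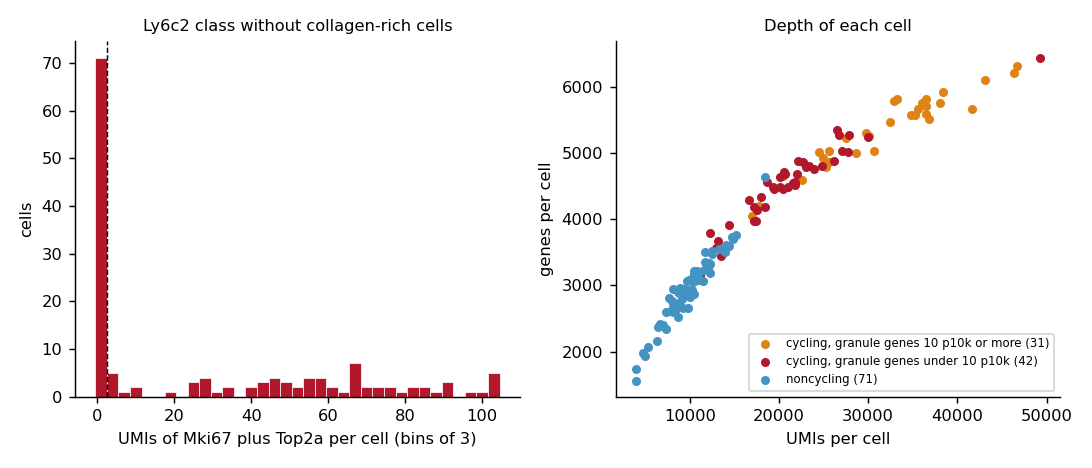
Left, number of *Ly6c2* class cells by the UMIs of *Mki67* plus *Top2a*, in bins of 3, with the limit for cycling cells as a dashed line. Right, UMIs and detected genes of each of the 144 cells, with 31 cycling cells of at least 10 p10k of granule genes in orange, 42 other cycling cells in red, and 71 noncycling cells in blue. The noncycling cells lie at the lower end of both axes.

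Cycling cells were deeper, with a median of 23874 UMIs (range, 10655 to 49262) compared with 10030 UMIs (3955 to 18427) in noncycling cells. The part of depth in the comparisons below was not tested beyond the shares at equal depth given with them. *Csf1r* stood at 152 CPM in cycling and 378 CPM in noncycling cells, and since the rule asked for 2 UMIs at any depth, shallower cells needed a higher level to enter.

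Cycling cells were at least 4-fold higher than noncycling cells for 316 of 5886 genes (5.37%) and lower for 88 (1.5%), with a median log2 ratio of 0.02. Of the 12 cell cycle genes other than *Mki67* and *Top2a*, 11 were higher, with a median of 4.52. *Birc5*, the survivin gene, stood at 541 CPM in cycling and 7.05 CPM in noncycling cells, and *Hist1h1b*, a linker histone gene of S phase named after its values were seen, at 1556 and 22.5 CPM. *Cdk1*, the mitotic kinase gene, had 278 CPM in cycling cells and no UMI in noncycling cells, which is a log2 ratio of at least 6.04 against a floor of 3 UMIs. These genes follow from how the cells were divided.

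The monocyte genes split into those shared by the 2 states and those higher in noncycling cells. *Ly6c2* stood at 4136 CPM in cycling and 4449 CPM in noncycling cells, and *Chil3* at 2916 and 2880 CPM. Of the 12 classical monocyte genes, 1 was at least 4-fold lower in cycling cells, with a list median of -0.71, beside 1.5% and 0.02 for all genes. That gene was *Vcan*, at 49.9 CPM in cycling cells (p10k lowest 0, median 0, highest 7.68) and 440 CPM in noncycling cells (0, 2.5, and 32.9). *Ccr2* stood at 628 CPM in cycling cells (0.432, 5.78, and 22.0 p10k) and 1859 CPM in noncycling cells (1.37, 17.3, and 75.1 p10k), so that its ranges overlapped while the medians differed 3-fold.

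*Apoe* separated the 2 states widely. It stood at 31.7 CPM (24.1 to 40.9) in cycling and 2194 CPM (2087 to 2306) in noncycling cells, a log2 ratio of -6.11. In single cells it ranged from 0 to 6.86 p10k with a median of 0 in cycling cells and from 0 to 151 p10k with a median of 9.41 in noncycling cells. At 3000 UMIs per cell, *Apoe* was detected in 8.22% of 73 cycling cells (3.08% to 17%) and 70.4% of 71 noncycling cells (58.4% to 80.7%), compared with 6.30% of 4554 neutrophils. The neutrophil median was 4995 UMIs before thinning, and the unthinned shares were 32.9%, 80.3%, and 12.2%. *Apoc2*, an apolipoprotein gene of the same chromosome 7 cluster, had a log2 ratio of -3.21, at 36.5 and 337 CPM.

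Other genes higher in noncycling cells were *Slfn5* (log2 ratio, -4.04), *Wfdc17* (-3.11), *Clec4a3* (-3.08), *Cx3cr1* (-2.46), *Ccl6* (-2.26), and *Ctss* (-1.74). Of these, *Slfn5* and *Wfdc17* were named after their values were seen. *Ctss* was detected in all 144 cells, at 0.803 to 16.4 p10k (median, 5.39) in cycling cells and 5.97 to 36.3 p10k (median, 18.7) in noncycling cells. *Cx3cr1*, the fractalkine receptor gene that is low in classical and high in nonclassical monocytes, was detected in 31 of 73 cycling and 51 of 71 noncycling cells. *Spn*, the CD43 gene and likewise a nonclassical marker, went the other way, at 186 CPM in cycling and 62.0 CPM in noncycling cells. *Lyz2*, the lysozyme gene, stood at 12682 and 29320 CPM.

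Of 11 interferon response genes tested, 6 were at least 4-fold lower in cycling cells and none higher, with a median of -2.37, compared with 1.5% of all genes. *Irf7*, an interferon-induced transcription factor gene, stood at 58.5 CPM in cycling and 302 CPM in noncycling cells and was detected in 48 of 73 and 64 of 71 cells. *Ifit3* stood at 2.15 and 172 CPM and was detected in 4 and 33 cells, and 5 noncycling cells held 51.6% of its noncycling UMIs. *Ifi204* differed by -1.57, at 175 and 520 CPM. Of the PYHIN genes, *Ifi206* and *Ifi213* were at least 4-fold lower in cycling cells, at 8.59 and 107 CPM for *Ifi206*, whereas *Ifi207*, at 147 and 309 CPM, and *Ifi211*, at 136 and 318 CPM, differed by less.

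Of the other lists, genes at least 4-fold lower in cycling cells numbered 3 of 6 for pattern recognition receptors (*Cd14*, *Tlr2*, and *Tlr7*), beside 1.5% of all genes. For chemokines they numbered 3 of 4 (*Ccl6*, *Ccl2*, and *Cxcl2*). Several of these rest on few cells. The top 5 noncycling cells held 92.2% of the *Cd14* UMIs, 72.1% of the *Nr4a1* UMIs, 83.3% of the *Ccl2* UMIs, and 100% of the *Il1b* and *Cxcl2* UMIs of that state. *Tlr2*, by contrast, was spread over 42 of 71 noncycling cells, at 123 CPM compared with 17.2 CPM in cycling cells. Lysosomal genes differed little, with 1 of 18 at least 4-fold lower and a median of -0.60, beside 1.5% and 0.02 for all genes.

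Genes other than cell cycle genes that were higher in cycling cells included *Irf8*, at 594 CPM compared with 272 CPM (log2 ratio, 1.13), and *Cxcr4*, at 231 compared with 55.0 CPM (2.07). *Irf8* was detected in 73 of 73 cycling and 60 of 71 noncycling cells, and at 3000 UMIs per cell in 71.2% (59.4% to 81.2%) and 45.1% (33.2% to 57.3%). *Cxcr4* was detected in 69 of 73 and 27 of 71 cells. *Ctsg*, a granule protease gene not used by the rule, stood at 413 and 26.8 CPM (3.95), but the log2 ratio was 1.66 among cells with at most 5000 genes.

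**Figure D4:**
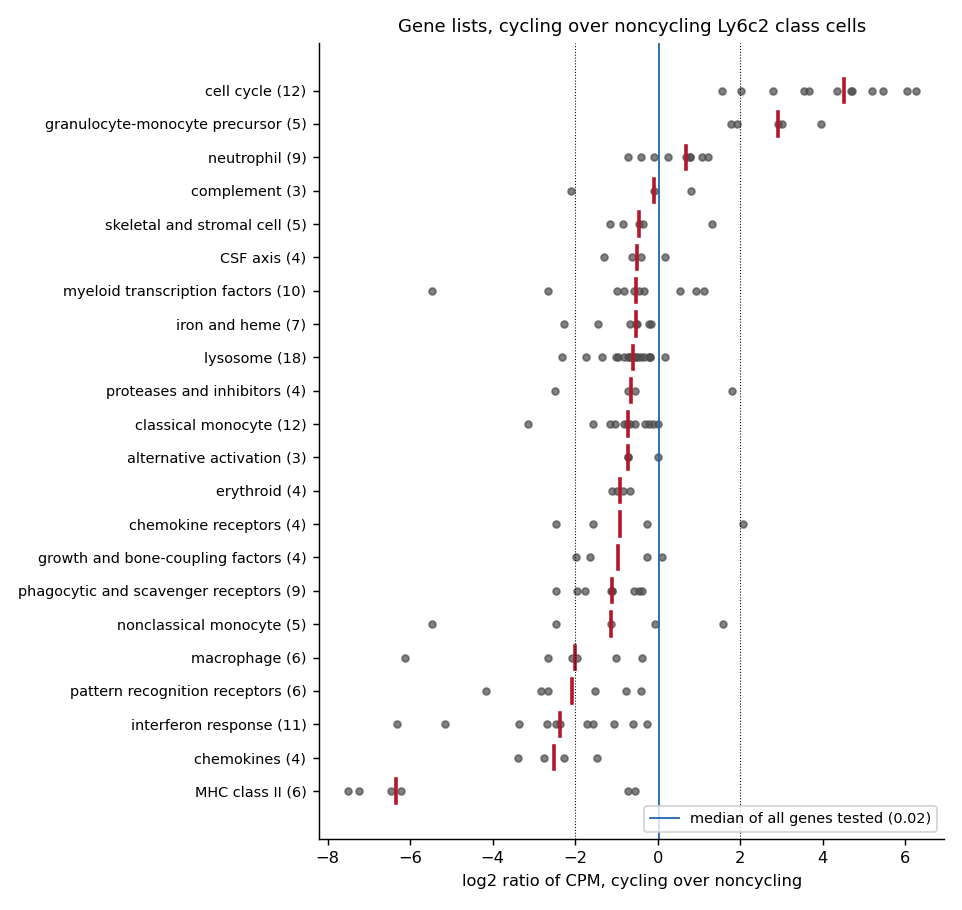
Log2 ratio of CPM, cycling over noncycling cells of the *Ly6c2* class, for each tested gene of the lists with at least 3 genes (gray points), with list medians as red bars, the median of all 5886 genes as a blue line at 0.02, and dotted lines at 4-fold. Cell cycle genes lie furthest to the right (median, 4.52) and MHC class II genes furthest to the left (median, -6.34), where 3 noncycling cells carry most UMIs of 4 of the 6 genes.

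The cycling cells were divided further by the granule genes of the rule. Since the rule had capped these genes, the division is a description of the chosen cells and supports nothing by itself. In 31 of them the sum of *Elane*, *Mpo*, and *Prtn3* was at least 10 p10k, and in 42 it was lower, with medians of 32894 and 20539.5 UMIs per cell. Whether the 31 are monocytes or precursors was not tested. Several genes stood between the granule-high cycling cells and the noncycling cells in the granule-low cycling cells. In this order, *Ccr2* stood at 474, 803, and 1859 CPM, *Lyz2* at 9320, 16506, and 29320 CPM, and *Ccl6* at 64.6, 397, and 1053 CPM. *Ctsg*, a granule gene like those that made the division, stood at 704, 82.6, and 26.8 CPM. *Fn1* differed between the cycling states (628 and 2145 CPM) more than between granule-low cycling and noncycling cells (2339 CPM), and *Chil3* was highest in the granule-low cycling cells, at 1994, 3965, and 2880 CPM. *Apoe* was low in both cycling states, at 20.2 and 44.8 CPM. The order describes cells of 1 library and is not a time course.

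**Figure D5:**
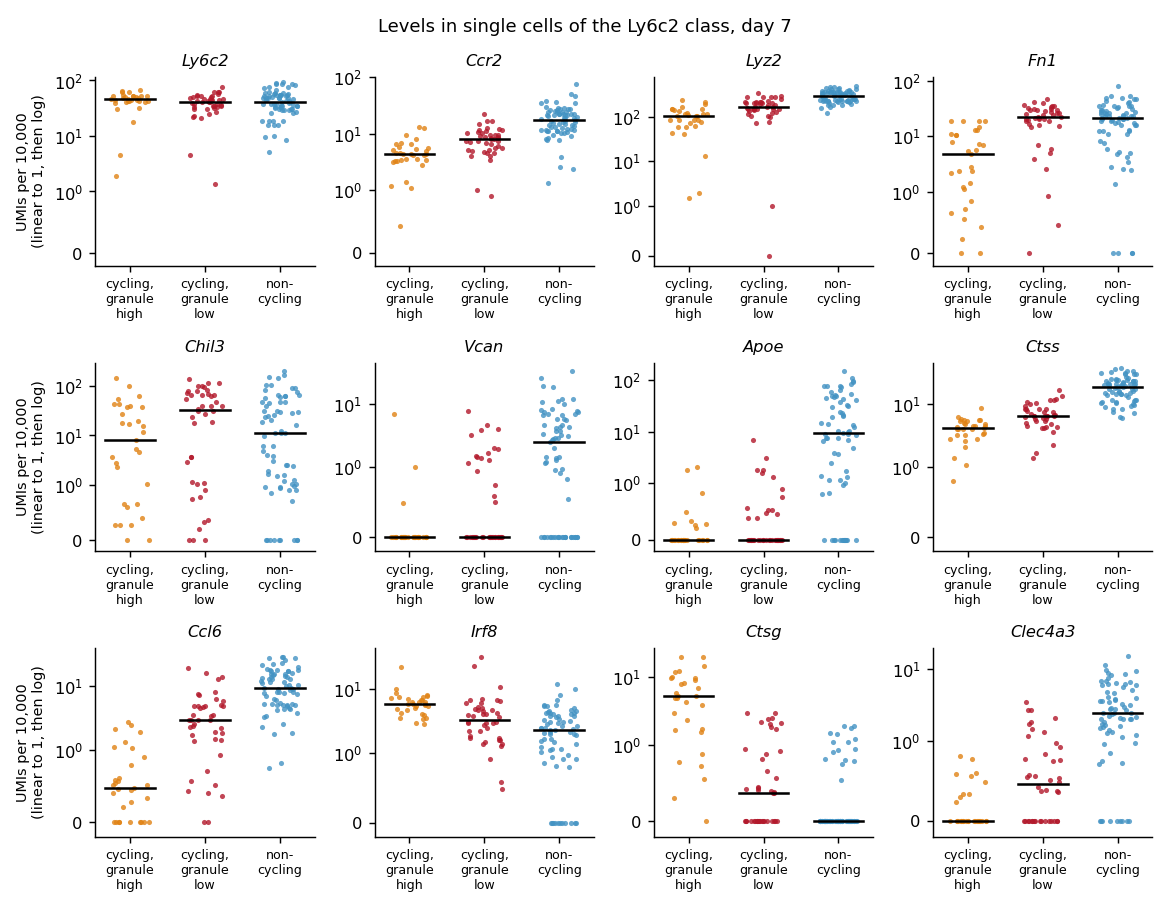
Level of 12 genes in each of the 144 *Ly6c2* class cells, in UMIs per 10000 UMIs of the cell (axis linear to 1, then log), by state, with medians as black bars: 31 granule-high cycling cells (orange), 42 granule-low cycling cells (red), and 71 noncycling cells (blue). *Ly6c2* is level across the states, *Ccr2*, *Lyz2*, and *Ctss* medians are highest in noncycling cells, and most cycling cells lie at or near 0 for *Apoe* and *Vcan*.

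Some cells departed from the rest. In the *Ly6c2* class, 5 cells held less than 15 p10k of *Lyz2*, all 5 of them cycling, with 7, 32, 0, 7, and 5 UMIs of *Lyz2*, and the next cell held 40.3 p10k. These 5 cells held 13 to 117 *Irf8* UMIs and each at least 1 UMI of *Flt3*, a receptor of early progenitors and dendritic cells. The cell without *Lyz2* also held 73 *Irf8*, 49 *Bst2*, 19 *Tcf4*, and 5 *Siglech* UMIs, the last 3 being genes of plasmacytoid dendritic cells, and 3 *Ly6c2* UMIs, so that it passed the class limit narrowly. The summed UMIs of *H2-Aa*, *H2-Ab1*, *H2-Eb1*, and *Cd74* were 0 in 112 of the 144 cells and over 200 in 3 noncycling cells, which held 822 of 891 such UMIs. *H2-DMa*, by contrast, stood at 186 CPM in cycling and 273 CPM in noncycling cells (log2 ratio, -0.56), and *H2-DMb1* at 55.8 and 91.6 CPM. *H2-Aa*, an MHC class II chain gene, was found in those 3 noncycling cells and in no cycling cell. The 3 cells had 25 to 39 *Ly6c2* UMIs and 31 to 41 *Ccr2* UMIs each.

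The 3 cells of the C1q class were unlike each other. The smallest, of 903 UMIs, held 16 UMIs of *Vcam1* and 4 of *Cd5l*, genes of marrow and splenic macrophages, with 20 of C1q. Another, of 13115 UMIs, held 23 C1q, 200 *Apoe*, 49 *Ctsk*, 30 *Spp1*, and 20 *Hmox1* UMIs. The last, of 10731 UMIs, held 930 UMIs of the same 4 MHC class II genes and exactly the 3 C1q UMIs of the limit. Of the 8 cells in neither class, 5 held over 100 p10k of *S100a8* and *S100a9*. Of the others, the deepest (45699 UMIs) held 104 UMIs of *Mki67* and *Top2a*, 35 of *Irf8*, and 11 of *Flt3*, and another (4510 UMIs) held 38 *Apoe*, 10 *Cx3cr1*, and 11 *Pglyrp1* UMIs with no *Ly6c2* or *Ccr2*.

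At equal depth of 3000 UMIs, *Ccr2* was detected in 83.7% of 153 members (76.8% to 89.1%), 0.395% of 4554 neutrophils, and 8.48% of 330 granulocyte precursors. By detection, *Ly6c2* did not set members apart from these 2 groups, at 94.8%, 87.7%, and 93.9% in the same order. It was found in 13.5% of B lineage cells. For *Chil3* the shares were 67.3%, 65.2%, and 18.5% in members, neutrophils, and granulocyte precursors. *Adgre1* was detected in 15.7% of members (10.3% to 22.4%) and 2.09% of neutrophils, and *Fcgr1* in 21.6% (15.3% to 28.9%) and 0.198%. *C1qa* was detected in 1.96% of members (0.406% to 5.62%) and 1.45% of neutrophils (1.12% to 1.84%), and the intervals overlap. Of the 20 *C1qa* UMIs in members, 7 and 8 lay in 2 cells of the C1q class. Unthinned shares in members were 92.4% for *Ccr2*, 47.5% for *Adgre1*, 49.4% for *Fcgr1*, and 3.80% for *C1qa*, at median depths of 13744 UMIs in members and 4995 UMIs in neutrophils.

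No cell of the day 10 library met the rule, which by the same limit of 3 counts allows a share of up to 0.0409% of its 7334 cells, and 3 of 10813 cells did at day 14 (0.0277%, 0.00572% to 0.0811%). The 3 day 14 cells had different leading genes. One held 57 *Ly6c2*, 18 *Ccr2*, 25 *Chil3*, and 327 *Lyz2* UMIs, like the day 7 monocytes. The largest (58399 UMIs) held 483 *Ctsk*, 699 *Acp5*, and 61 *Atp6v0d2* UMIs, genes of osteoclasts, and no *Ly6c2*. The remaining cell held 173 *Acp5*, 338 *Cd74*, and 127 *H2-Aa* UMIs. Since the share of *Ptprc*-positive cells differed between the libraries from 0.0818% to 91.1%, these numbers cannot be told apart from differences in what the sort let through.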

How the data were processed

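Single-cell RNA was measured in 3 libraries. The authors aligned reads and collapsed UMIs with Cell Ranger (3.0 in the submitters' processing notes, 3.1.0 in the matrix headers, another version in the paper, and the kit version also differs between sources). The deposited matrices hold raw counts of UMIs for mm10 with no normalization applied, including cells outside the study's own limits. Members were selected by the stated rule with Python 3.11.15, numpy 2.4.6, scipy 1.17.1, pandas 2.3.3, and scikit-learn 1.9.0. Levels are CPM of summed UMIs with 95% exact Poisson intervals. Shares have Clopper-Pearson intervals. Ratios used genes with at least 50 UMIs in both groups together and a floor of 3 UMIs per group. Each call needed a 4-fold ratio, and no p-value was computed. On simulated counts for 11000 genes, few of them changed 4-fold, every changed gene of the members-over-neutrophils comparison had the right direction. Over all these genes, most of them unchanged, 96.1% of intervals held the true ratio. The simulated counts were Poisson, without spread between cells, and the changed genes were drawn from those with more UMIs. The outcome follows from that setting and does not bear on ratios that rest on few cells. Doublets were scored against simulated ones (top 7% per library, threshold chosen here), and marked cells were kept. Members and gene lists were chosen with earlier results of these data known. Named genes are those of the 31 lists and rule, plus the 10 largest ratios over neutrophils and over B lineage cells among genes with at least 200 UMIs in members. Others are said to be named after their values were seen, or lie in the *Ms4a* and PYHIN clusters, which were likewise chosen then. *Lyz2* belongs to none of these sets and was not named in advance. Cycling and granule gene divisions, the collagen-rich limit, and precursor comparisons beyond the fixed ones were also chosen after seeing the data. Windows came from RefSeq for GRCm38.p6. A listed gene is not reported here.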

Additional observations from a re-analysis of the deposited data

How the results depend on the processing

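No paired analysis was possible because the labels give no replicate numbers and each day has 1 library, so no library could be left out. Among alternative values of the main results, 69 stayed within 1.5 times the count or within the interval of the share, 24 moved further, and no called ratio changed sign. The balance over B lineage cells turned, from 569 higher and 591 lower genes to 669 and 475 without the collagen-rich members, and the uncalled ratio of *Chil3* changed sign with median-ratio scaling. The cause was not tested. Members were 2.92% of day 7 cells with at least 1 *Csf1r* UMI and 1.33% with at least 3. At day 10, 10 cells met the rule without the *Ptprc* requirement, and at day 14 11 did, or 8 with 1 *Csf1r* UMI. The *Ly6c2* class was 96.5% of members under 100 p10k of *S100a8* and *S100a9*. Over neutrophils, higher genes numbered 2808 with each cell weighted equally, 808 at a minimum of 200 UMIs, and 587 with median scaling, which gave 942 lower genes.

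Alternatives chosen after seeing the data moved the rest. Cells with at most 5000 genes gave a cycling share of 37.7%, 456 higher and 159 lower genes over granulocyte precursors, and 179 higher and 55 lower genes in cycling over noncycling cells. A minimum of 200 UMIs gave 332 and 252 over granulocyte precursors, 288 and 232 over B lineage cells, and 117 and 16 in cycling cells. Cycling cells under 10 p10k of granule genes gave 199 higher and 50 lower, and with the collagen-rich cells kept, lower genes numbered 181. Cell number limits the 3 cells of the C1q class and the 3 cells of day 14, so the planned comparisons of the C1q class with the *Ly6c2* class and of day 7 with day 14 levels were not run. Of 29 genes compared between cycling and noncycling cells, 16 moved with at most 5000 genes per cell, with the log2 ratio of *Chil3* going from 0.02 to 0.75 and that of *Ctsg* from 3.95 to 1.66.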
